A study of Ceratotherium simum with 9 samples.

Results

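The imprinted DLK1-DIO3 miRNA cluster was followed through the extracellular vesicles (EVs) of southern white rhinoceros (SWR) follicular fluid (FF). Its members were chosen by name and by their measured values: an entry had to carry 1 of 44 miRNA numbers of the cluster and to exceed 10 CPM (read counts scaled to a common depth by the authors) in at least 2 of the 3 libraries of a stage. Of 3886 entries in the table, 80 carried such a name without a read, 56 carried one with at least 1 read, and 34 of the latter passed the CPM threshold and are the members described here. They make up 34 of the 417 miRNA entries that passed the same threshold in the whole series. Because the threshold used the CPM of these libraries, the detection of the members is a description and not a finding.

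Follicles were aspirated from 2 SWR females, both of which had received oral chlormadinone acetate followed by the GnRH analog Deslorelin, and were flushed with a heparin solution. By diameter they were growing (G, 11 to 17 mm), dominant (D, 18 to 29 mm) or pre-ovulatory (P, 30 to 34 mm). Each stage had 3 small-RNA libraries made from EVs that had been pooled over the 2 animals, so no library stands for 1 animal or 1 follicle. The methods call these libraries pooled technical replicates in one place and biological replicates in another, and the p-values below measure only the spread between them, which may be technical.

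A miRNA is a short RNA that is cut from a hairpin precursor and pairs with messenger RNAs, mainly through its seed, bases 2 to 8, to lower their translation and stability. In mammals the DLK1-DIO3 region is imprinted: the protein-coding genes DLK1, RTL1 and DIO3 are expressed from the paternal chromosome, whereas MEG3, MEG8 and the miRNAs are made from long noncoding transcripts of the maternal chromosome. In human and mouse these miRNAs are best known from brain, placenta, embryonic tissue and mesenchymal cells. Along the human locus they fall into a group near MEG3, RTL1 and MEG8 (miR-493, miR-431, miR-433, miR-127, miR-432, miR-136 and miR-370 among the members) and a dense array that runs from miR-379 to miR-656.

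The sequences of 3 members were at hand, from a list of 44 sequences in the study's supplement. They are shown because eca-miR-381 and hsa-miR-493-5p are the members that the limma fit below called and because miR-379 opens the array. Each is written 5′ to 3′ with T for U and with the seed in capitals.
eca-miR-381: tATACAAGggcaagctctctgt
eca-miR-379: tGGTAGACtatggaacgtagg
hsa-miR-493-5p: tTGTACATggtaggctttcatt
The lengths are 22, 21 and 22 bases. The 3 seeds differ, and none of them recurred among the 44 sequences of that list, which does not cover all entries of the series. The prefix names the species whose miRBase entry the read matched, eca for horse, bta for cattle and hsa for human. No rhinoceros coordinates were given with the miRNAs. In the RefSeq gene table of the rhinoceros assembly ASM5780239v1, DLK1 and DIO3 lie on the same chromosome with 61 of the 467 snoRNA entries of that table between them.

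The 34 members comprised 19 horse, 6 cattle and 9 human entries, which stand for 23 miRNA numbers, 7 near MEG3, RTL1 and MEG8 (9 members) and 16 in the array (25 members). Another 22 entries of the cluster had reads but did not pass, with 74 reads in all, 60 of them in G3. No entry of 10 of the 44 miRNA numbers had a read. Closest to the threshold on the inside were hsa-miR-411-3p, with 18.7 CPM as the second-highest value of its best stage, and eca-miR-758, eca-miR-369-3p and eca-miR-494, which tied at 25.2 CPM. Closest on the outside were eca-miR-487b, with 11 reads of which 10 were in G3, and hsa-miR-379-3p, with 8 reads, all in G3. Passing differed between the stages: 28 members passed in G, 20 in D and 33 in P. In detail, 19 passed in all stages, 8 in G and P, 6 in P alone and 1 in G and D. In the 14 that passed in P and not in D the threshold itself favoured P over D. Main counts over all members are therefore followed by those over the 19 that passed in all stages.

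Depth limited every value. Between 18384 (P2) and 149281 (D2) miRNA reads were recovered per library, and a single read counted for 5.64 CPM in G3 but for 38.6 CPM in P2. A library with 0 reads of a miRNA is compatible with up to 3 reads, that is 16.9 to 115.9 CPM. The members together had 4838 reads, of which 61.0% came from G3, and the median member had 47 reads while 12 had fewer than 20. G3 and D2 stood apart: G3 held by far the most reads of the cluster, and in D2 eca-miR-148a alone took 71.8% of the reads. By the study's supplement, G3 also had the most raw reads and the lowest share of reads that passed quality control of all libraries. Whether this bears on the cluster reads of G3 was not tested. Reads had no molecular identifiers, so intervals cover counting error only. In bulk EV preparations fewer vesicles of a source and less miRNA per vesicle cannot be told apart.

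The cluster was a minor part of the EV miRNAs, and its share of the reads was lowest in the D group. In G the members held 0.462% of the reads of G1 (95% Wilson interval 0.410 to 0.520), 0.525% of G2 (0.435 to 0.634) and 1.99% of G3 (1.92 to 2.06). In D they held 0.449% of D1 (0.382 to 0.529), 0.111% of D2 (0.0949 to 0.129) and 0.316% of D3 (0.265 to 0.378). In P they held 0.890% of P1 (0.809 to 0.979), 1.81% of P2 (1.63 to 2.01) and 1.16% of P3 (1.04 to 1.29). Every P library was above every D library. Every G library was above every D library as well, but G1 and G2 exceeded D1 by little, and the intervals of G1, G2 and D1 overlap. The stage means (± SD, n = 3) were 0.993% ± 0.866 for G, 0.292% ± 0.171 for D and 1.29% ± 0.473 for P, and no test was made on this sum because its members were selected on these values. The G mean rests on G3: without it the mean was 0.493%. Over the 19 members that passed in all stages, the share was 0.784 to 1.58% in P and 0.0744 to 0.440% in D, which did not overlap, whereas G1 (0.415%) was then below D1 (0.440%).

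The low share in D2 moved with eca-miR-148a, the most abundant miRNA there. With eca-miR-148a left out of the total, the share in D2 was 0.392%, close to the 0.396% of D3, and that of D1 was 0.522%. The P libraries then held 1.03, 2.04 and 1.32%, still above every D library. The G libraries held 0.512, 0.579 and 2.09%, and G1 was then below D1, so that G and D overlapped.

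**Figure D1:**
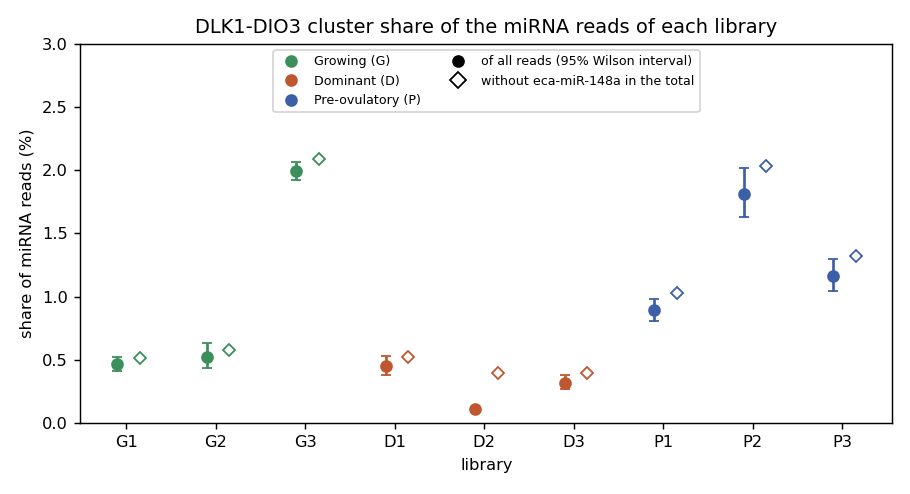
Share of all miRNA reads held by the 34 members in each library, in percent; filled circles are the share of all reads with its 95% Wilson interval and open diamonds the share with eca-miR-148a left out of the total. The 3 P libraries lie between 0.890 and 1.81%, above the D libraries at 0.111 to 0.449%, and G3 stands apart from G1 and G2 at 1.99%.

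More of the 34 members were seen in each P library than in any D library, a difference that the CPM threshold set in part. Reads were found for 27, 20 and 34 members in G1 to G3, for 21, 17 and 14 in D1 to D3, and for 29, 31 and 27 in P1 to P3. Scaled down to the 18384 reads of the shallowest library, the expected numbers were 18.2, 19.2 and 28.4 in G, 15.6, 6.52 and 10.5 in D, and 21.9, 31 and 23.7 in P. With eca-miR-148a removed and 16354 reads per library, D2 was expected to show 11.6 members, and the D libraries were at 11.1 to 15.9 and the P libraries at 22.2 to 31. Of the 19 members that passed in all stages, 18, 14 and 13 had reads in D1 to D3 and 18, 18 and 16 in P1 to P3, and D and P overlapped. At 18384 reads, 13.9, 5.08 and 10.05 of these 19 were expected in D and 15.1, 18 and 15.2 in P. Of the members, 9 had 0 reads in all D libraries, 11 had 1 to 3 reads in D, and 14 had more than 3. No member lacked reads in the whole of G or of P. Only 6 had reads in all 9 libraries.

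Over all members, the array share of the cluster reads was lower in each D library than in any G or P library. The CPM threshold may have set this in part, since some array members passed in P and not in D. The share over the members that passed in all stages is not given, and no test was made. A single entry, eca-miR-127, held 49.2% of the member reads, and the 4 most read members held 70.3%. The array from miR-379 to miR-656 took 41.4, 40.2 and 32.0% of the member reads in G1 to G3. It took 23.4, 18.2 and 19.0% in D1 to D3. It took 41.1, 27.3 and 26.7% in P1 to P3. The stage means (± SD, n = 3) were 37.9% ± 5.09 for G, 20.2% ± 2.83 for D and 31.7% ± 8.14 for P. The D libraries overlapped neither the G nor the P libraries, though the 95% Wilson interval of D1 (17.3 to 30.97%) overlapped those of P2 (22.8 to 32.4%) and P3 (22.2 to 31.7%). With bta-miR-493, a member read mostly in a few libraries, left out, the D libraries still overlapped neither G nor P, at 33.1 to 41.6% in G, 19.0 to 26.1% in D and 28.3 to 42.6% in P. With eca-miR-127 left out, the D libraries ranged from 30.9 to 63.9% and overlapped the P libraries (44.8 to 69.5%). Both alternatives were chosen after the values had been seen.

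**Figure D2:**
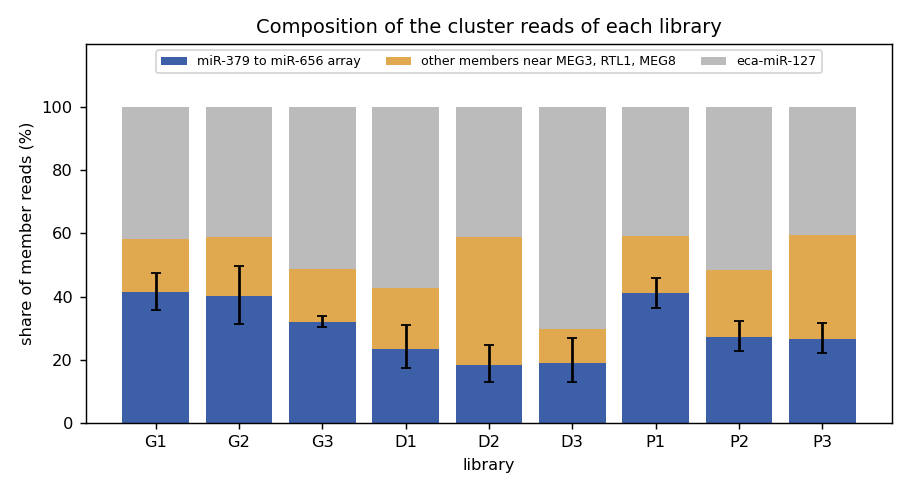
Composition of the member reads of each library, in percent of member reads: the miR-379 to miR-656 array (bottom, with 95% Wilson intervals), the members near MEG3, RTL1 and MEG8 other than eca-miR-127 (middle) and eca-miR-127 (top). The array takes 18.2 to 23.4% in the D libraries and 26.7 to 41.4% in the G and P libraries.

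Each member was compared between stages with limma on log2(CPM + 10), fitted to all 417 entries and 9 libraries. P-values were adjusted by the Benjamini-Hochberg method over the 417, and an entry was called at an adjusted p under 0.1 with a change of at least 2-fold, the thresholds of the study. Fold changes on this scale understate those of entries with few reads. P vs. D and G vs. D share the D libraries and are therefore not independent of each other.

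In P vs. D, 2 of the 34 members were called, both higher in P, where 2.64% of all tested entries were called. These were eca-miR-381 and hsa-miR-493-5p. In 12 members every P library was above every D library, where this held for 12.2% of all tested entries, and in 0 members was every P library below every D library (10.1% of all tested). Without D2 these counts were 13 (15.1% of all tested) and 0 (14.9%). Among the 19 members that passed in all stages, 8 had every P library above every D library. The fitted change was positive in 31 members and in 224 of all 417 entries, and its median was 1.52 on the log2 scale in the members against 0.16 in all entries. Among the 19 members that passed in all stages, 17 had a positive change, with a median of 1.22, and 1 was called. The matching background for these 19 would be the 231 entries of the series that passed in all stages. Its values are not given here, so the counts for the 19 stand without a background. Under total-sum scaling the median of all entries moved to 0.70 and that of the members to 1.97. With limma, 6 members (17.6%) and 14.6% of all entries reached an unadjusted p under 0.05. With edgeR, 4 members (11.8%) and 16.5% of all entries did, and 0 members and 1.68% of all entries were called. DESeq2 called 3 members (8.82%), eca-miR-381, eca-miR-379 and hsa-miR-493-5p, and 11% of all entries, a share that the members did not exceed.

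In G vs. D, 0 of the 34 members were called with limma (0.959% of all tested entries were), and 3 (8.82%) had an unadjusted p under 0.05, as had 9.35% of all entries. edgeR called 0 as well, with 7 members (20.6%) and 15.3% of all entries at an unadjusted p under 0.05. DESeq2 called the same 3 members as in P vs. D (8.82%) and 3.36% of all entries. In 8 members every G library was above every D library (9.59% of all tested), and in 0 was every G library below every D library (5.04%). Without G3 these counts were again 8 and 0, where the shares of all tested were 11.3 and 7.19%. Without D2 they were 9 and 1, where the shares were 13.9 and 8.15%. The median change of the members was 1.35 against 0.43 in all entries. Among the 19 members that passed in all stages, 7 had every G library above every D library, 17 had a positive change, the median was 1.40, and 0 were called. These counts again stand without the background of the 231 entries that passed in all stages. Without G3 the median of all 34 members was 0.83 against 0.05 in all entries. Total-sum scaling moved the median of all entries to 0.77 and that of the members to 1.52.

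In P vs. G, 0 members were called with limma, edgeR or DESeq2 (0.48% of all tested entries were called with limma), and 0 members reached an unadjusted p under 0.05 with any of these tools. In 0 members was every P library above every G library (3.6% of all tested). In 1 member, eca-miR-485-3p, every P library was below every G library (6.0% of all tested). Without G3 these counts were 4 (9.83% of all tested) and 1 (8.15%). Because eca-miR-485-3p missed the CPM threshold at the P stage, part of its separation was set by its selection. Its lowest G value (33.5 CPM in G2) and its highest P value (25.2 CPM in P3) were 1 read each. The gap between these 2 values therefore reflects only the CPM that a read counted for in each library. The median change of the members was 0.12, and that of all entries -0.28. Without G3 they were 0.57 and 0.01, and without G2 they were -0.45 and -0.47.

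**Figure D3:**
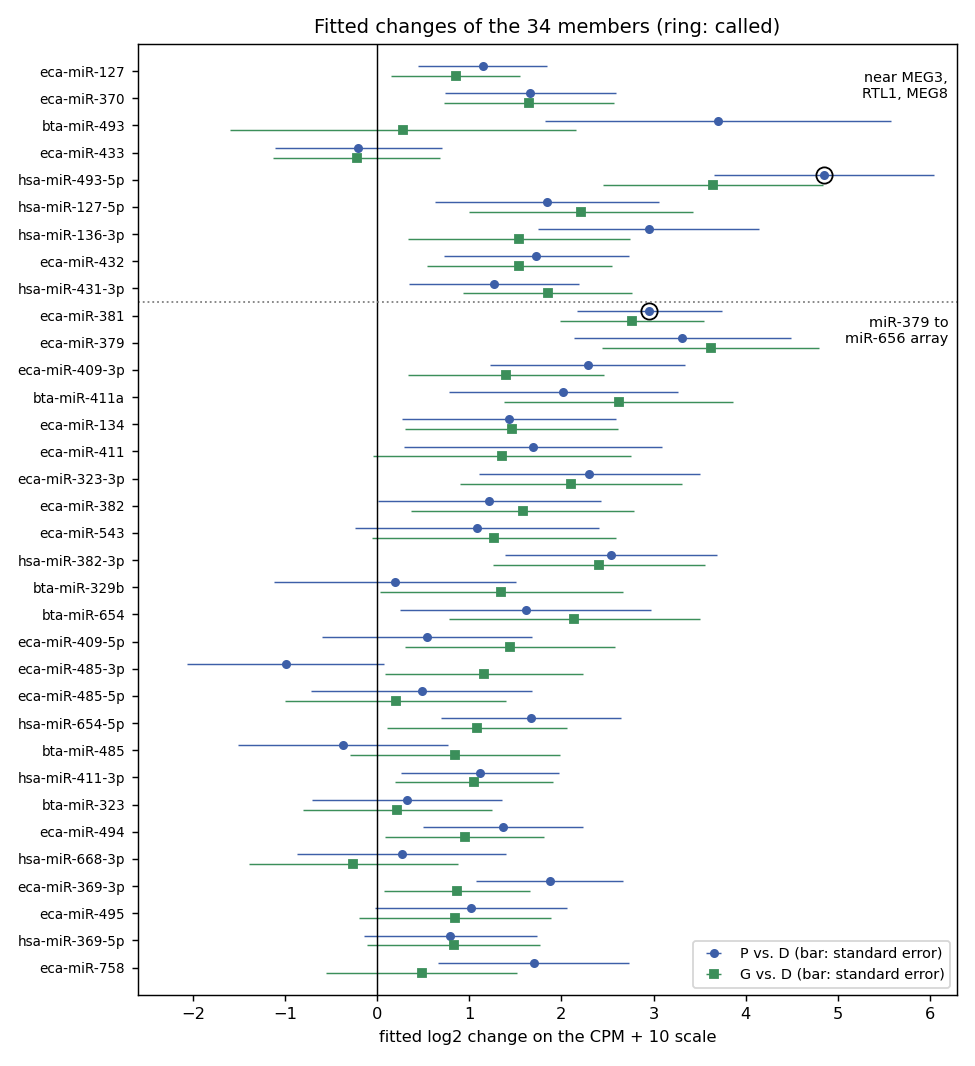
Fitted log2 changes of the 34 members on the CPM + 10 scale with their standard errors, P vs. D (circles) and G vs. D (squares), grouped by position along the human locus and ordered by reads within each group; rings mark called members. Most points lie right of 0 in both comparisons, and the 2 rings are eca-miR-381 and hsa-miR-493-5p in P vs. D.

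Of the members near MEG3, RTL1 and MEG8, eca-miR-127 was by far the most abundant. In mouse this miRNA is cut from the transcript antisense to Rtl1, to which it is fully complementary. It stood at 3059.8, 1473 and 8545 CPM in G1 to G3, at 2257, 1471 and 1953 CPM in D1 to D3, and at 3214, 6648 and 3323 CPM in P1 to P3. All P libraries exceeded all D libraries, whereas G2 was at the level of D2. The fitted change was 1.15 (SE 0.70) in P vs. D, with a limma adjusted p of 0.378, and 0.85 (SE 0.70) in G vs. D, with an adjusted p of 0.661, so neither passed the threshold.

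The human entry hsa-miR-127-5p, for the 5p arm, was much rarer. It had 3, 2 and 50 reads in G, 1, 0 and 2 in D, and 2, 3 and 6 in P. Its share of the miR-127 reads was 3.19% in G (95% Wilson interval 2.46 to 4.13), 1.26% in D (0.428 to 3.62) and 2.26% in P (1.27 to 4.00), over the pooled libraries. The intervals overlap, but they cover only counting error in the pooled reads, and a difference of this ratio between the stages was not tested. The fitted changes of hsa-miR-127-5p were 1.84 (SE 1.22) in P vs. D and 2.21 (SE 1.22) in G vs. D, with limma adjusted p of 0.411 and 0.503.

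Entries for miR-493, a miRNA that lies at the MEG3 end of the human cluster, behaved differently from each other. The called hsa-miR-493-5p, whose sequence is given above, had 12, 1 and 22 reads in G1 to G3, 0 reads in each D library, and 18, 13 and 5 reads in P1 to P3. In CPM these were 327.8, 33.5 and 124.2 in G and 336.4, 502 and 125.9 in P. All G and all P libraries had it and no D library did. Against a floor of 3 reads over the D group and per TMM-adjusted depth, its pooled level was at least 12.7-fold higher in P and at least 6.06-fold higher in G. These bounds allow for counting error in D only, since the P and G reads were taken as exact. Without D2 these bounds were 8.09 and 3.84, and without D3 they were 8.36 and 3.97. The fitted change in P vs. D was 4.85 (SE 1.20) with a limma adjusted p of 0.0636. The member did not pass the threshold in D, so part of this difference was set by its selection. The call was lost without any 1 of the D or P libraries, at an adjusted p of 0.165 without D1, 0.140 without D2, 0.152 without D3, 0.203 without P1, 0.189 without P2 and 0.106 without P3. In G vs. D the fitted change was 3.65 (SE 1.20) with an adjusted p of 0.290.

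The cattle entry bta-miR-493, which names no arm, had 1, 0 and 91 reads in G, 0, 50 and 0 in D, and 15, 12 and 69 in P. Its CPM in D2 was 1082, above that of P1 (280.3) and P2 (464), and it was at 0 in D1 and D3. The stages therefore overlapped, and the fitted change of 3.70 (SE 1.88) in P vs. D had a limma adjusted p of 0.325. In G vs. D the fitted change was 0.28 (SE 1.88, adjusted p 0.947), and it was -1.31 without G3 and -0.85 without D1 or without D3. Of the miR-493 reads, hsa-miR-493-5p made up 12 of 13 in G1, 1 of 1 in G2 and 22 of 113 in G3. It made up 18 of 33 in P1, 13 of 25 in P2 and 5 of 74 in P3. In D2, the only D library with miR-493 reads, it made up 0 of 50, which allows up to 7.13% (Wilson), and the 6.76% of P3 lies within that limit. The pooled shares of 27.6% in G and 27.3% in P each rest on 1 library, since they were 92.9% without G3 and 53.4% without P3.

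In eca-miR-370 and eca-miR-433 the stages overlapped. For eca-miR-370, which lies near MEG8 in human, the CPM was 601, 301.3 and 1338 in G, 435 in D1, 173.1 in D2 and 91.9 in D3, and 485.8, 1198 and 428 in P. D1 lay above G2 and P3. The fitted changes were 1.66 (SE 0.93) in P vs. D and 1.65 (SE 0.93) in G vs. D, with limma adjusted p of 0.345 and 0.524. For eca-miR-433, which like miR-127 comes from the transcript antisense to Rtl1 in mouse, the CPM was 163.9, 200.8 and 175.0 in G, 299.2, 194.7 and 160.9 in D, and 205.5, 193.2 and 151.0 in P. It was the one member among the 12 most read whose fitted change was below 0 in P vs. D (-0.21, SE 0.90, adjusted p 0.971) and in G vs. D (-0.22, SE 0.90, adjusted p 0.947). Its sign turned under total-sum scaling, to 0.56 and 0.22, and without D1, to 0.04 and 0.02, and all of these are within 1 standard error of 0.

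The remaining members of this group had few reads. The human entry hsa-miR-136-3p had 0, 0 and 42 reads in G, 0 in each D library, and 2, 2 and 4 reads in P. It was thus at 0 in 5 of the 9 libraries, and its G reads all came from G3. With its 8 P reads taken as exact, its pooled level in P was 2.83 times the same floor in D. The ratio was 1.80 without D2 and 1.86 without D3. This entry passed the threshold in P alone, so part of the difference was set by its selection. For eca-miR-432 and hsa-miR-431-3p, both from the RTL1 part of the cluster, 15 and 13 reads were found in all and 0 in D.

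In the array, eca-miR-381 had the most reads. It stood at 874, 669 and 1084 CPM in G1 to G3, at 135.99, 129.8 and 91.9 CPM in D1 to D3, and at 1401, 1159 and 579 CPM in P1 to P3. The lowest G and P libraries were well above the highest D library, and the G and P libraries overlapped each other. The stage means (± SD, n = 3) were 876 ± 207 CPM for G, 119.2 ± 23.9 CPM for D and 1047 ± 423 CPM for P. In reads, D had 5, 6 and 4, so its level there rests on 15 reads. The fitted change in P vs. D was 2.96 (SE 0.78), a 7.76-fold difference, with a limma adjusted p of 0.0891, and this member had passed the CPM threshold in all stages. In G vs. D the fitted change was nearly as high, at 2.77 (SE 0.78), with an adjusted p of 0.187. The P vs. D call was lost without any 1 of the D or P libraries, at an adjusted p of 0.176 without D1, 0.140 without D2, 0.177 without D3, 0.273 without P1, 0.219 without P2 and 0.106 without P3, while the change itself stayed between 2.70 and 3.33.

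The member that opens the array in human, eca-miR-379, had the next most reads. It had 519, 133.9 and 1067 CPM in G, 27.2, 108.2 and 0 CPM in D, and 448, 347.8 and 251.7 CPM in P. All G and all P libraries were above all D libraries. The fitted changes of 3.31 (SE 1.18) in P vs. D and 3.62 (SE 1.18) in G vs. D were the highest of the array members in each comparison, but with limma adjusted p of 0.224 and 0.290 neither was called.

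Its neighbour miR-411 was split over entries. The cattle entry bta-miR-411a had 54.6, 66.9 and 541.8 CPM in G, 27.2, 21.6 and 0 in D, and 56.1, 77.3 and 125.9 in P. All G and P libraries lay above all D libraries, but D had 2 reads in all, and 96 of the 100 G reads were in G3. The horse entry eca-miR-411 had 191.2 CPM in G1, 0 in G2 and 310.4 in G3, 1 read in each D library (21.6 to 27.2 CPM), and 186.9, 38.6 and 125.9 CPM in P. The fitted changes in P vs. D were 2.02 (SE 1.24) for bta-miR-411a and 1.69 (SE 1.40) for eca-miR-411, with limma adjusted p of 0.378 and 0.540. In G vs. D they were 2.62 (SE 1.24) and 1.35 (SE 1.40), with adjusted p of 0.469 and 0.712. The human entry hsa-miR-411-3p had 16 reads in all, 14 of them in G3.

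For miR-409 both arms were read from horse entries. The 3p arm had 13, 2 and 46 reads in G, 1, 3 and 6 in D, and 15, 16 and 10 in P, and its CPM was higher in all P libraries (251.7 to 618) than in all D libraries (27.2 to 137.9). Its fitted change was 2.29 (SE 1.06) in P vs. D with a limma adjusted p of 0.316, and 1.40 (SE 1.06) in G vs. D with an adjusted p of 0.645. The 3p arm took 79.2% of the miR-409 reads in G (68.9 to 86.8), 83.3% in D (55.2 to 95.3) and 87.2% in P (74.8 to 94.0). These intervals overlap, but they cover only counting error in reads pooled over the libraries of a stage. A difference of the arm ratio between the stages was not tested.

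A member studied for its role in dendritic spines of rat and mouse neurons, eca-miR-134, had 136.6, 33.5 and 361 CPM in G, 54.4, 21.6 and 46.0 in D, and 112.1, 154.6 and 100.7 in P. Every P library was above every D library, and G2 lay within the D range. The fitted changes were 1.43 (SE 1.16) in P vs. D and 1.46 (SE 1.16) in G vs. D, with limma adjusted p of 0.536 and 0.657.

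**Figure D4:**
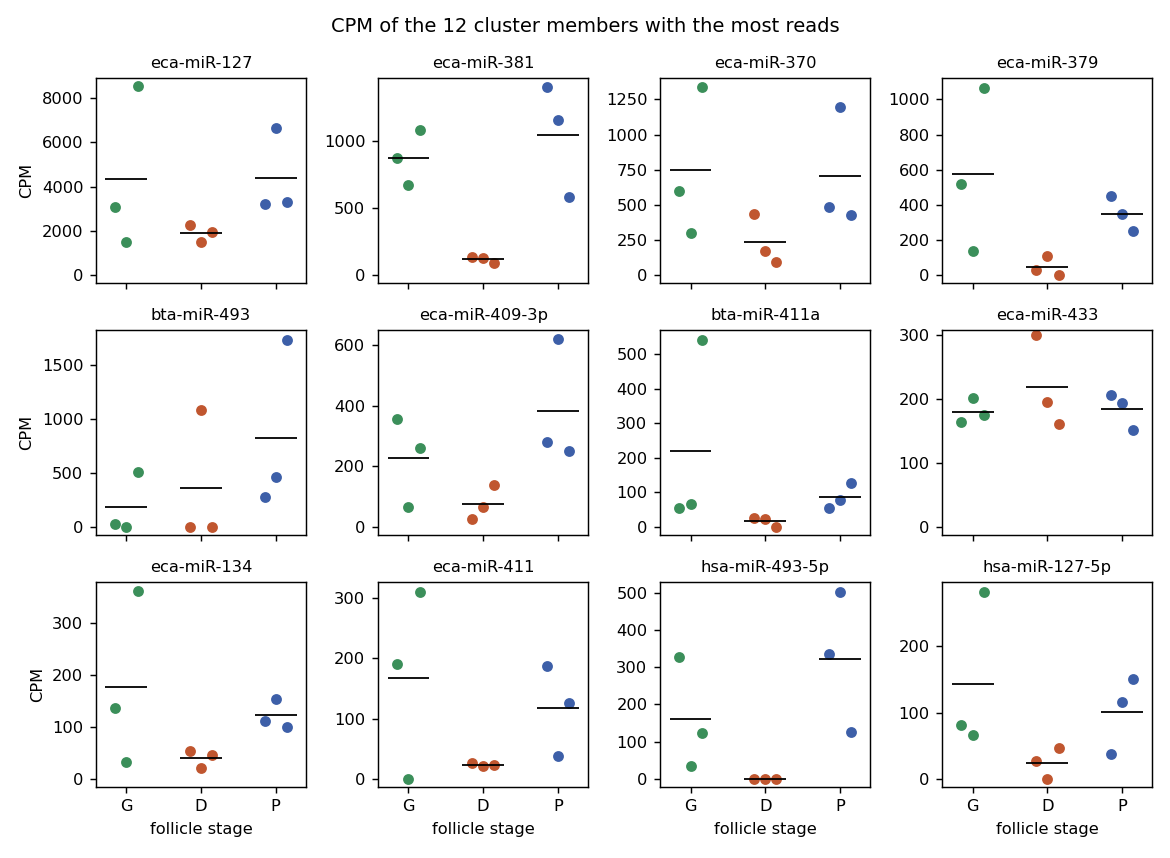
CPM of the 12 members with the most reads in the growing (G), dominant (D) and pre-ovulatory (P) stages; each point is 1 library, replicate 1 to 3 from left to right, and bars are means over 3 libraries. In eca-miR-381 and eca-miR-379 all D libraries lie below all G and P libraries, bta-miR-493 shows the single high library D2, and eca-miR-433 overlaps in all stages.

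Other array miRNAs with several entries gave pairs too thin to compare between stages. For miR-382, hsa-miR-382-3p had 41 reads in G (39 of them in G3), 0 in D and 6 in P, whereas eca-miR-382 had 37, 7 and 11. The 3p share was 52.6% in G (41.6 to 63.3), 35.3% in P (17.3 to 58.7) and 0 of 7 in D, which allows up to 35.4%. The G share rests on G3, where hsa-miR-382-3p had 39 reads and eca-miR-382 had 30. In G1 they had 2 and 4 reads, and in G2 0 and 3. The pooled level of hsa-miR-382-3p in P was at least 2.12 times the floor of D, a bound that was 1.35 without D2, 1.39 without D3 and 1.51 without D1, and that could not be set without P3.

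For miR-323, eca-miR-323-3p had 39 reads in G, 2 in D and 15 in P and bta-miR-323 had 8, 2 and 3. For miR-485, with 3 entries, the pooled reads were 34 in G, 14 in D and 9 in P. This was the one miRNA number of the array with fewer pooled reads in P than in D. These reads are not scaled for depth, and the D libraries had a mean of 73266 miRNA reads against 31251 in P. Of the miR-485 entries, 2 were the only array members with a fitted P vs. D change below 0: eca-miR-485-3p (-0.995) and bta-miR-485 (-0.37). Over the settings tried, the change of bta-miR-485 ran from -1.19 to 0.41, so its sign was not stable. The CPM threshold may have set the value of eca-miR-485-3p in part, since this entry did not pass in P. For miR-654 (bta-miR-654 with 44 reads and hsa-miR-654-5p with 19) and miR-369 (hsa-miR-369-5p with 11 and eca-miR-369-3p with 12) the D group had 1 read each over both entries.

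The remaining array members had 9 to 49 reads each over the 9 libraries: eca-miR-543 (49), bta-miR-329b (47), eca-miR-494 (13), hsa-miR-668-3p (12), eca-miR-495 (12) and eca-miR-758 (9). Their fitted changes in P vs. D lay between 0.19 for bta-miR-329b and 1.70 for eca-miR-758, and none was called. Over the array as a whole the median change was 1.37 in P vs. D and 1.27 in G vs. D, and over the members near MEG3, RTL1 and MEG8 it was 1.73 and 1.54.

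Within the G group the cluster was unevenly spread. Of the 34 members, 25 had their highest G value in G3, 6 in G1 and 3 in G2, in CPM. The matching counts over all 417 entries are not given. G3 was the deepest G library, where a read counted for 5.64 CPM against 27.3 in G1 and 33.5 in G2. Leaving out G3 lowered the G vs. D median of all entries from 0.43 to 0.05 and that of the members from 1.35 to 0.83. For eca-miR-127 the G3 value was 8545 against 1473 CPM in G2, and for bta-miR-411a it was 541.8 against 66.9 CPM. The spread was smaller for eca-miR-381, at 669 to 1084 CPM, and for eca-miR-433, at 163.9 to 200.8 CPM, and eca-miR-409-3p and hsa-miR-493-5p were highest in G1. G1 and G2 had 0 reads of 7 and 14 members.

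Marker lists of other sources differed between P and D in both directions, and more of them were lower in P than higher. The stroma and theca list (miR-143, miR-145, miR-199 and miR-214, 12 of 12 entries detected) summed to 31189 to 35989 CPM in P and 9261 to 30245 CPM in D, with 4 entries at 0 in all D libraries, and to 10511 to 32158 CPM in G. The neural list (miR-9 and miR-124, 8 of 8 entries detected) summed to 7960.3 to 19382 CPM in P, 850.3 to 1925 CPM in D and 2008 to 47599 CPM in G, where the highest library was G3. The muscle list (miR-1, miR-133 and miR-206, 6 of 7 detected) summed to 12863 to 22223 CPM in P and 9043 to 11478 CPM in D, with 1 entry at 0 in D. In each of these lists all P libraries were above all D libraries, for stroma and theca only narrowly.

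Other lists were lower in all P than in all D libraries. These were the leukocyte list (766 to 1198 against 3699 to 9433 CPM), the red cell list (33470 to 57460 against 82089 to 214200 CPM), the epithelium list (3169 to 6166 against 6274 to 14065 CPM) and the endothelium list (4561 to 6335 against 10961 to 16118 CPM). The liver list (12213 to 17796 against 20499 to 43082 CPM) was lower as well. So was the list for granulosa after LH (miR-132, miR-212 and miR-21), at 24189.8 to 39653 against 39915 to 74413 CPM. By the study, miR-21 is among the most abundant miRNAs of every stage, so it may dominate this sum. The values of miR-132 and miR-212 alone are not given, and the sum does not show their direction. In the order given, 10 of 12, 5 of 6, 15 of 21, 3 of 3, 1 of 4 and 7 of 8 entries of these lists were detected. The part of any of these sources in the values of the cluster was not tested.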

How the data were processed

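EVs were isolated from FF by ultracentrifugation and size exclusion, and their small RNA was sequenced on a NovaSeq6000. According to the methods, the authors trimmed the reads and matched them in CLC Genomics Workbench to horse, cattle and human miRBase entries, horse first, allowing 2 mismatches, so that reads of 1 miRNA may be split over entries. The deposited values are a signal, CPM that the authors had adjusted by TMM. DESeq2 is named in the submitters' processing notes without a role. Within a library the deposited values are whole multiples of the smallest, which gave whole reads for 100% of the values within 0.01 of a read.

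Members, named miRNAs and marker lists were chosen with earlier results of these data known. Named members were those called, the 12 with the most reads, pairs of entries of 1 miRNA, the 3 with the most reads among those at 0 in a stage, and those nearest the threshold. eca-miR-323-3p, eca-miR-382 and the further members named with reads stand there to account for every member.

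Stage was the only factor in the limma fit (version 3.58.1 under R 4.3.3), which took log2(CPM + 10) of all 9 libraries and let the prior variance follow a trend. The alternatives were edgeR 4.0.16 (quasi-likelihood) and DESeq2 1.42.0 on recovered reads, and other pseudocounts, filters, scalings, a replicate block and each library left out. DESeq2 gave no adjusted p for 16 members in P vs. D, 3 in G vs. D and 20 in P vs. G. Wilson intervals and pooled bounds were computed in Python 3.11.15 (pandas 2.3.3, numpy 2.4.6), and figures were drawn with matplotlib 3.10.9. The RefSeq table served for gene order only.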

Additional observations from a re-analysis of the deposited data

How the results depend on the processing

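Low depth limits these results: the median member had 47 reads, and 20 members had at most 3 reads in D. The 2 members called in P vs. D became 0 at an adjusted p under 0.05, with a pseudocount of 50 CPM and with edgeR, 1 with no filter and 1 with a replicate block, and 5 with only the 2 compared stages in the fit. With 1 library left out they ranged from 0 to 3, and every D and every P library brought them to 0. The count in G vs. D was 3 with DESeq2 and 0 without any 1 library, and that in P vs. G was 0 in all settings tried. Samples of different stages share only a number: deviations of same-numbered libraries correlated at -0.06 to 0.14 over 9 pairs (median 0.03) and those of others at -0.19 to 0.05 over 18 pairs, so the numbers were not taken as pairs.

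Of the fitted changes of the 12 most read members in P vs. D and G vs. D, counting only settings that moved the value, 271 of 282 kept the sign first given, and the other 11 belong to eca-miR-433 and bta-miR-493. The sign turned for eca-miR-433 in P vs. D under total-sum scaling (0.56), the same without eca-miR-148a (0.0131) and without D1 (0.0363), where leaving out 1 library gave -0.39 to 0.0363, and in G vs. D under total-sum scaling (0.22) and without D1 (0.0173), where leaving out 1 library gave -0.41 to 0.0173. It turned for bta-miR-493 in G vs. D with a pseudocount of 50 CPM (-0.13), edgeR (-1.28), DESeq2 (-1.42), without G3 (-1.31) and without D1 or D3 (-0.85), where leaving out 1 library gave -1.31 to 2.54. The cause of these turns was not tested.

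The member share of all reads was lower in every stage when eca-miR-127 was left out, at 0.516% in G, 0.117% in D and 0.698% in P. With 1 library left out the mean share ranged from 0.493 to 1.26% in G, 0.213 to 0.383% in D and 1.03 to 1.49% in P. The array share of member reads became 68.4% in G, 49.9% in D and 56.9% in P without eca-miR-127, and ranged from 36.1 to 40.8% in G, 18.6 to 21.2% in D and 27.0 to 34.2% in P with 1 library left out. The alternatives for the array share, the bounds and the overlap counts were chosen with the data in view.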
